A study of Mus musculus with 466 samples.

Results

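Tbx15, Shox2, En1, Tcf21, Gata4, Gata6, Irx3, Irx5 and Lhx8 are 9 developmental transcription factors, and their transcripts were followed here in 4 labelled fat depots of obese mice before and during caloric restriction. All 9 were found by gene symbol among 16643 measured genes, through 11 probe sets, and each gene was read from the probe set with the highest mean over all 466 arrays. The mice were male C57BL/6J animals, described by the series as obese and losing weight on a restricted diet, and no other allele or agent is named. Each mouse was killed on day 0, 1, 3, 7, 14, 21, 42 or 60 of restriction, so day 0 is the unrestricted obese group and no mice kept off restriction to a later day were analysed. Of the 80 mice, 40 carry the letter J in their identifier, 39 carry N and 1 carries none. The letters are not explained, day 1 holds J mice only and day 60 holds N mice only.

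The fat arrays numbered 312, with 78 labelled abdominal subcutaneous, 79 mesenteric, 80 perirenal and 75 perigonadal, and 73 mice gave all 4. At day 0 there were 12, 12, 12 and 11 arrays in that order, at day 42 there were 11, 11, 12 and 10, and at day 60 each depot had 6. Hypothalamus and liver of the same mice were also measured. Values are the deposited Affymetrix intensities on a linear scale, on which the mean of an array lay between 0.962 and 0.999. An intensity is relative to the probe set that gave it, so levels are compared here between samples of 1 gene and not between genes. Whole pieces of fat were measured, and fewer cells of a type and less RNA per cell cannot be told apart in any of the values.

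Fat depots arise from different embryonic territories, and their cells keep part of the transcription factor programme of that origin. T-box factors such as Tbx15, homeobox factors such as Shox2, En1, Irx3 and Irx5, the LIM-homeobox factor Lhx8, the helix-loop-helix factor Tcf21 and the zinc finger factors Gata4 and Gata6 bind DNA and set regional identity in the embryo. In mouse fat, Tbx15, Shox2 and En1 are known from subcutaneous and Tcf21 from visceral depots, while Lhx8 has been used as a marker of brown fat.

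The markers of each tissue were set beside the labels first, and several go against them. Adipoq, the adipocyte hormone adiponectin, had similar medians in all 4 labelled depots (18.7 subcutaneous, 18.3 mesenteric, 18.9 perirenal and 19.1 perigonadal). Fabp2, a fatty acid binding protein of the intestinal lining, had a median of 11.5 in labelled subcutaneous fat and of 0.0286 to 0.0410 in the others. Adam7, a protease of the epididymis, had its highest median, 0.258, in labelled mesenteric fat against 0.0193 to 0.0227 elsewhere. The mesothelial list, genes of the lining of the body cavities, had all 8 members measured, and its summed intensity ranged from 4.04 to 36.4 in labelled subcutaneous, 4.97 to 14.6 in mesenteric, 2.37 to 13 in perirenal and 0.518 to 0.908 in perigonadal fat. Among the members, Tbx15, Shox2 and En1, known from subcutaneous fat, were highest in labelled perigonadal fat. Tcf21, known from visceral fat, was lowest there, so these members go against the labels too. The depots are therefore named as labelled throughout, no other name is given to them, and whether labels were exchanged was not tested. The whole array set also differed slightly in scale: the median log2 intensity over all probe sets was -1.90 in labelled subcutaneous fat and -2.13, -2.11 and -2.08 in mesenteric, perirenal and perigonadal fat.

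RefSeq promoter windows on mouse build GRCm38.p6, from 250 bases before to 50 after the annotated start, were read for Shox2, En1, Lhx8, Tcf21 and Irx3. They are shown 5′ to 3′ on the gene's strand for Shox2, En1 and Lhx8, which were highest in labelled perigonadal fat, and for Tcf21, which was lowest there. Capitals mark a match to 1 of 5 motifs searched on both strands: the E-box CAGCTG, the GATA motif GATAAG, the T-box motif AGGTGTG, the homeobox core TAATTA and the TATA box TATAAA. Each window shown held at most 1 match, so no matches overlapped.
Shox2, chr3:66981722-66982021, minus strand: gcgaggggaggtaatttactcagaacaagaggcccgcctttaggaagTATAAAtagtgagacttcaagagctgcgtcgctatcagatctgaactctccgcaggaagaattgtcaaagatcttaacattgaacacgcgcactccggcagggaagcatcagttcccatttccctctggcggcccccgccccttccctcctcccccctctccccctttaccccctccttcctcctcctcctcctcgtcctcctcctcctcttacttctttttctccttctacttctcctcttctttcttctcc
En1, chr1:120602237-120602536, plus strand: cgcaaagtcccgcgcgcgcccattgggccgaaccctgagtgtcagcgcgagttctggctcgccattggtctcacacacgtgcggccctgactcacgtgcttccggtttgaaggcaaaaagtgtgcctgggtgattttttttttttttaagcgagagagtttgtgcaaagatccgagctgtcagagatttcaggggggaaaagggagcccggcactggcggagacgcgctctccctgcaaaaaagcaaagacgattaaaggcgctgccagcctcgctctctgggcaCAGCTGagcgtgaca
Lhx8, chr3:154330511-154330810, minus strand: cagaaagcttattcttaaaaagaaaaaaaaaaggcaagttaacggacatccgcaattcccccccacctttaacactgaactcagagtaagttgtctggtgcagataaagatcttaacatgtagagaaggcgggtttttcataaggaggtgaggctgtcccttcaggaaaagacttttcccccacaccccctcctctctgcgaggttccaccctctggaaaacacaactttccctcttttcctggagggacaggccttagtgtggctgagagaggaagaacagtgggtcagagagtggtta
Tcf21, chr10:22820094-22820393, minus strand: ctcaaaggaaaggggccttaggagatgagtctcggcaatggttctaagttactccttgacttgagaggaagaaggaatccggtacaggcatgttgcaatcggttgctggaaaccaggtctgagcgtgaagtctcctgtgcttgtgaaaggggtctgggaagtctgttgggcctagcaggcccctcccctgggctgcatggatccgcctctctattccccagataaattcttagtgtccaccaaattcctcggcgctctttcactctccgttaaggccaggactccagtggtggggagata

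The Shox2 window held TATAAA, which 13.6% of all 32544 RefSeq promoter windows of this length hold, and the En1 window held CAGCTG, which 16.4% hold. The Lhx8 and Tcf21 windows held none of the 5 letter strings, nor did that of Irx3, and the shares over all windows were 7.32% for GATAAG, 5.86% for AGGTGTG and 5.29% for TAATTA. The windows also differed in CG dinucleotides, with 11 in Shox2, 23 in En1, 4 in Lhx8, 8 in Tcf21 and 14 in Irx3 against a median of 7 over all windows. The 3 windows of genes high in labelled perigonadal fat shared none of the motifs searched. Such matches are descriptions of letters and not binding sites. Tbx15, Gata4, Gata6 and Irx5 are described by their values.

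Tbx15, a T-box factor of skeletal and skin patterning, was by far highest in labelled perigonadal fat. Over all days its intensity there was 0.434 at the lowest, 0.520 at the median and 1.04 at the highest. In perirenal fat it was 0.0813, 0.139 and 0.329, in subcutaneous fat 0.0469, 0.0543 and 0.152, and in mesenteric fat 0.0391, 0.0467 and 0.0656. Every perigonadal array lay above every array of the other 3 depots, which was so of 0.451% of all genes. The fitted log2 difference between mesenteric and perigonadal fat was -3.55 ± 0.04 (SE), an 11.7-fold lower level (limma, adjusted p = 2.7e-190), and perirenal fat lay 3.93-fold below perigonadal fat. Folds between depots depend on how dim intensities are treated, and with 0.05 added to every intensity before taking log2, an alternative setting, the difference between mesenteric and perigonadal fat was -2.63, or 6.20-fold. Subcutaneous and mesenteric fat were closest, 0.22 ± 0.04 apart on the log2 scale over all days and 0.22 ± 0.11 at day 0 alone, where the difference was not called (adjusted p = 0.057). The other Tbx15 probe set had its medians in the same order, 0.214 in perigonadal, 0.0857 in perirenal, 0.0281 in subcutaneous and 0.0239 in mesenteric fat.

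Shox2, a homeobox factor of limb and heart development, followed the same order of depots. Its lowest, median and highest intensities were 0.172, 0.237 and 0.279 in labelled perigonadal fat, 0.0443, 0.0528 and 0.0843 in perirenal, 0.0304, 0.0386 and 0.0593 in subcutaneous and 0.0235, 0.0306 and 0.0414 in mesenteric fat. Again no perigonadal array overlapped any other fat array. The perigonadal level exceeded the mesenteric by 7.70-fold (log2 difference of mesenteric minus perigonadal -2.95 ± 0.03), the subcutaneous by 5.97-fold and the perirenal by 4.46-fold. With 0.05 added these became 3.56-fold (log2 difference -1.83), 3.20-fold and 2.79-fold.

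En1, the engrailed homeobox factor that marks part of the embryonic skin and muscle territory, was highest in labelled perigonadal fat, next in perirenal fat and low in the other 2. Its lowest, median and highest intensities were 0.00901, 0.0101 and 0.0122 in labelled subcutaneous fat, 0.0103, 0.0126 and 0.0166 in mesenteric, 0.0244, 0.0431 and 0.0838 in perirenal and 0.0643, 0.0859 and 0.119 in perigonadal fat. The last 2 depots overlapped slightly, and so did the first 2. Perigonadal exceeded subcutaneous fat by 8.39-fold (log2 difference of subcutaneous minus perigonadal -3.07 ± 0.04) and perirenal fat by 1.97-fold, and with 0.05 added by 2.25-fold (log2 difference -1.17) and 1.44-fold. The En1 probe set is dim: its mean log2 level stood at percentile 0.2 of all probe sets in subcutaneous, 4.1 in mesenteric, 19.6 in perirenal and 31.4 in perigonadal fat. The En1 medians of hypothalamus (0.0132, percentile 1.9) and liver (0.0110, percentile 0.4) were similar to those of subcutaneous and mesenteric fat. No detection call was used, so whether the subcutaneous and mesenteric values lie above the background of the array cannot be told. The folds against them are ratios of deposited intensities only.

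Lhx8, a LIM-homeobox factor of forebrain and craniofacial development, was highest in labelled perigonadal fat, next in subcutaneous fat and low in the other 2. Its lowest, median and highest intensities were 0.657, 0.891 and 1.23 in perigonadal, 0.239, 0.464 and 0.622 in subcutaneous, 0.0923, 0.142 and 0.432 in perirenal and 0.0644, 0.102 and 0.163 in mesenteric fat. The perigonadal arrays overlapped no others. The perigonadal level was 1.95-fold the subcutaneous, 5.93-fold the perirenal and 8.66-fold the mesenteric level (log2 difference of mesenteric minus perigonadal -3.11 ± 0.05). Hypothalamus had a median of 2.78 and liver of 0.0231, and the medians of all 4 fat depots lay between them.

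Tcf21, a helix-loop-helix factor of visceral organ mesenchyme, showed the reverse pattern and the widest spread. Its lowest, median and highest intensities were 0.0179, 0.0204 and 0.0270 in labelled perigonadal fat, against 0.0940, 0.571 and 1.08 in perirenal, 0.419, 0.977 and 1.39 in subcutaneous and 0.804, 1.02 and 1.32 in mesenteric fat. All perigonadal arrays lay below all others, as was so of 0.529% of genes. The mesenteric level was 49.5-fold the perigonadal (log2 difference 5.63 ± 0.07, limma), the subcutaneous 44.6-fold and the perirenal 24.2-fold. The perigonadal mean log2 level stood at percentile 5.6 of all probe sets, so the size of these ratios of deposited intensities rests on a dim value whose background is unknown. With 0.05 added they became 15.1-fold (log2 difference 3.92), 13.7-fold and 7.88-fold. Hypothalamus had a median of 0.0130 and liver of 0.827. Subcutaneous and mesenteric fat differed by -0.15 ± 0.07 over all days (adjusted p = 0.044) and by -0.07 ± 0.17 at day 0 (adjusted p = 0.72). The summed mesothelial markers were lowest in the same depot, with a median of 0.659 in perigonadal fat and of 6.88, 8.4 and 24.3 in perirenal, mesenteric and subcutaneous fat, and their part in the Tcf21 difference was not tested.

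Gata4 and Gata6, zinc finger factors of heart, gut and visceral mesoderm, were highest in labelled subcutaneous fat. Gata4 had lowest, median and highest intensities of 0.124, 0.212 and 0.818 there, 0.0622, 0.0701 and 0.0921 in perirenal, 0.0454, 0.0535 and 0.0651 in mesenteric and 0.0424, 0.0503 and 0.0572 in perigonadal fat. No subcutaneous array overlapped any other fat array, as in 1.39% of genes. The subcutaneous level was 4.53-fold the perigonadal (log2 difference 2.18 ± 0.06), 4.24-fold the mesenteric and 3.23-fold the perirenal level. With 0.05 added these were 2.80-fold, 2.71-fold and 2.34-fold, and with the probe sets of the gene averaged 2.56-fold, 3.00-fold and 2.07-fold. Mesenteric and perigonadal fat were not called apart on the chosen probe set (log2 difference 0.09 ± 0.06, 95% interval -0.02 to 0.20, adjusted p = 0.10). With the probe sets averaged this difference was -0.23, in the other direction. A second Gata4 probe set had medians of 0.0425 in subcutaneous, 0.0334 in perirenal, 0.0305 in perigonadal and 0.0210 in mesenteric fat. Its spread was smaller and its highest depot the same, but its perigonadal median lay above its mesenteric one, the reverse of the chosen probe set.

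Gata6 differed less between depots. Its lowest, median and highest intensities were 0.461, 0.686 and 1.16 in labelled subcutaneous, 0.228, 0.334 and 0.466 in mesenteric, 0.211, 0.291 and 0.364 in perigonadal and 0.184, 0.268 and 0.461 in perirenal fat. The subcutaneous level was 2.60-fold the perirenal (log2 difference 1.38 ± 0.04), 2.46-fold the perigonadal and 2.06-fold the mesenteric level. Perirenal and perigonadal fat were 0.08 ± 0.04 apart on the log2 scale (adjusted p = 0.040) and 0.03 apart at day 0 (adjusted p = 0.79). Both GATA genes were highest in the depot that carried the intestinal markers. The list of 8 gut and pancreas genes had 6 measured, and its summed intensity was 5.78 to 49.3 in subcutaneous fat and 3.64 to 5.63 in the other depots, with its part in the GATA levels not tested. Liver, where both factors act, had medians of 0.741 for Gata4 and 0.315 for Gata6.

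Irx3 and Irx5, Iroquois homeobox factors that lie side by side next to Fto on the RefSeq map, did not share a pattern. Irx3 was lowest in labelled subcutaneous fat, with lowest, median and highest intensities of 0.121, 0.213 and 0.287, and then 0.173, 0.313 and 0.461 in mesenteric, 0.279, 0.338 and 0.543 in perirenal and 0.239, 0.341 and 0.433 in perigonadal fat. The ranges of all 4 depots overlapped. The subcutaneous level was 1.64-fold below the perirenal (log2 difference -0.72 ± 0.04), and no other pair of depots was further apart. At day 0, none of the 3 differences among mesenteric, perirenal and perigonadal fat was called (adjusted p = 0.072, 0.14 and 0.79 for mesenteric against perirenal, mesenteric against perigonadal and perirenal against perigonadal).

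Irx5 was instead highest in labelled perigonadal fat. Its lowest, median and highest intensities were 0.0917, 0.140 and 0.189 there, 0.0321, 0.0523 and 0.0847 in perirenal, 0.0339, 0.0514 and 0.117 in subcutaneous and 0.0256, 0.0379 and 0.0720 in mesenteric fat. Only the subcutaneous arrays reached into the perigonadal range. Perigonadal exceeded mesenteric fat by 3.63-fold (log2 difference of mesenteric minus perigonadal -1.86 ± 0.05), or by 2.14-fold (-1.10) with 0.05 added. Subcutaneous and perirenal fat were not called apart (0.03 ± 0.05, 95% interval -0.06 to 0.13, adjusted p = 0.54). Across mice within a depot, after removal of day means, the neighbours Irx3 and Irx5 varied together in mesenteric fat (Pearson r = 0.61, Spearman rho = 0.54, n = 79, adjusted permutation p = 9e-05), with r = 0.60 without the 2 most extreme mice, and the coefficients in subcutaneous, perirenal and perigonadal fat were 0.17, 0.13 and 0.23.

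**Figure D1:**
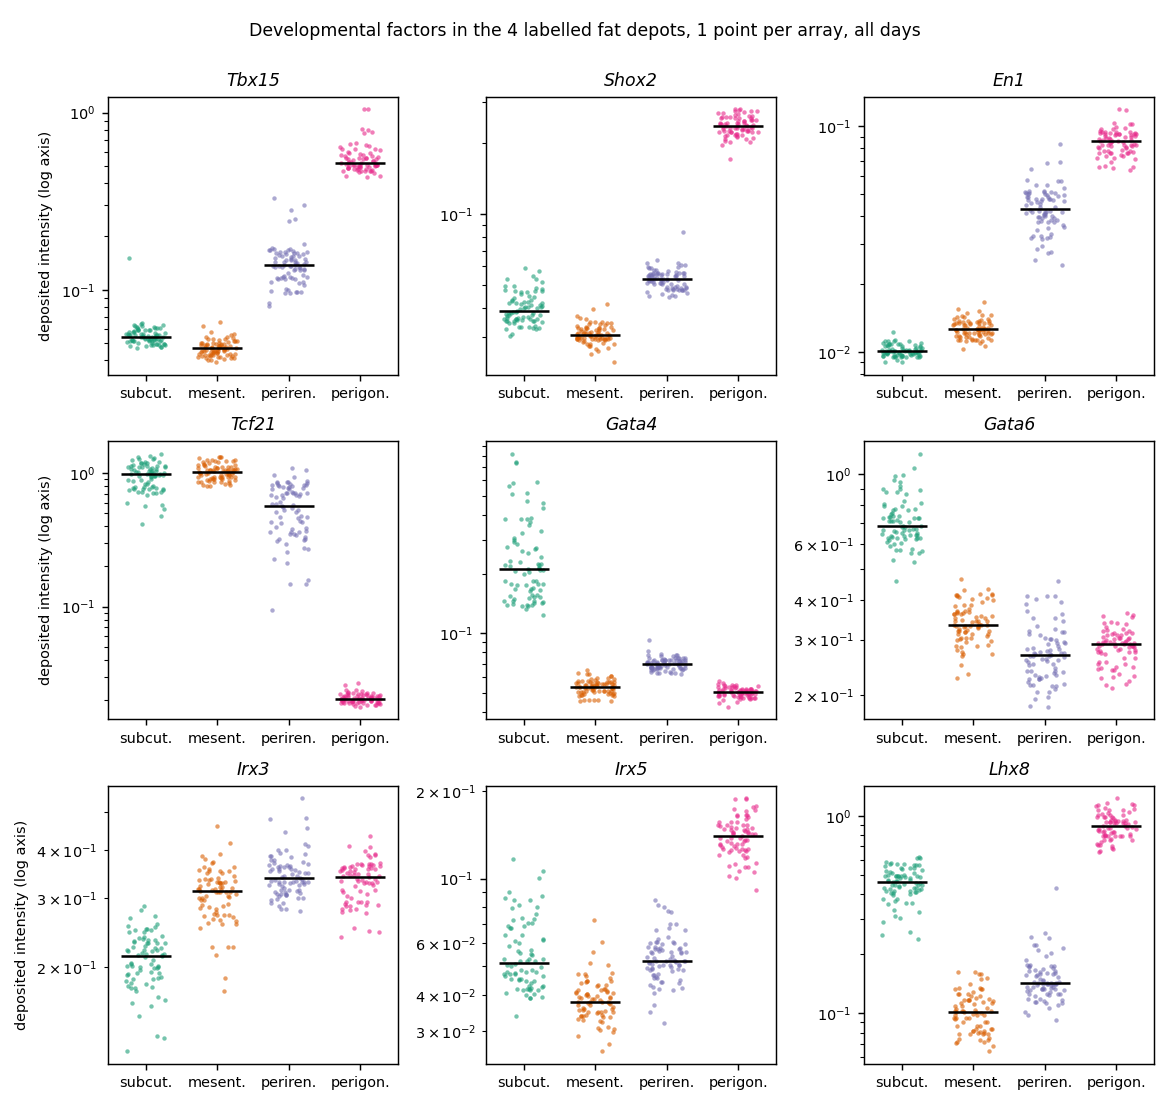
Intensity of each of the 9 genes on a log axis, 1 point per array with a line at the median, by labelled depot over all days (78 subcutaneous, 79 mesenteric, 80 perirenal and 75 perigonadal arrays). Tbx15, Shox2 and Lhx8 in perigonadal fat lie above, and Tcf21 lies below, every array of the other depots.

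Across the 6 pairs of depots the members differed often, but so did most genes. Over all days, limma called 9 of 9 members between labelled subcutaneous and mesenteric fat (90.1% of all genes), 8 between subcutaneous and perirenal (92.3%) and 9 between subcutaneous and perigonadal (92%). It called 9 between mesenteric and perirenal (86.9%), 8 between mesenteric and perigonadal (89.3%) and 9 between perirenal and perigonadal fat (84%). These counts are near the background. At day 0, 3 of 9 members were called with at least a 2-fold difference between subcutaneous and mesenteric fat (9.3% of genes), 5 between subcutaneous and perirenal (8.5%) and 7 between subcutaneous and perigonadal (9.85%). The counts were 2 between mesenteric and perirenal (4.31%), 6 between mesenteric and perigonadal (6.78%) and 6 between perirenal and perigonadal fat (4.18%). The members were chosen as depot genes, so these counts describe them and do not test the choice.

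Mouse by mouse, the highest or the lowest depot was the same in every mouse for 8 of the 9 members, while the full order of the 4 depots varied for most. In all 73 mice with 4 depots, Tbx15, Shox2, En1, Irx5 and Lhx8 were highest in labelled perigonadal fat (2.63% of genes), and Gata4 and Gata6 were highest in subcutaneous fat (3.64%). Tcf21 was lowest in perigonadal fat in all 73 (1.74%), but its highest depot was mesenteric in 41 mice, subcutaneous in 31 and perirenal in 1. En1 kept 1 order, perigonadal over perirenal over mesenteric over subcutaneous, in all 73 mice, and 3.76% of genes were lowest in subcutaneous fat in every mouse. Its mesenteric and subcutaneous values are dim, and whether that step of the order lies above the background of the array cannot be told. The commonest order held in 68 mice for Lhx8, 66 for Shox2, 61 for Tbx15, 54 for Gata4 and 41 for Gata6. It held in fewer than that for Tcf21 (34 mice, 5 orders seen), Irx5 (31 mice, 6 orders) and Irx3 (26 mice, 8 orders). Irx3 was highest in perirenal fat in 33 mice, in perigonadal in 33 and in mesenteric in 7.

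Most of the variation of the members lay between depots. The share of the variance of log2 values that lay between depots was 98% for Shox2, 97.4% for En1, 96.7% for both Tbx15 and Tcf21, 94.5% for Lhx8, 86.7% for Gata4, 84.8% for Irx5, 84.7% for Gata6 and 65.2% for Irx3. The median over all genes was 64.9%. The share between days within depots was 0.230% to 3.35% for the members, against a median of 4.57% over all genes. By the 9 members together, 311 of 312 arrays were nearest the centre of their own labelled depot. The members were chosen as depot genes and the centres come from the other labelled arrays of this series. This count therefore describes the arrays, and no count for other genes is set beside it. The exception was the perirenal array of mouse N14 on day 60, which was nearest perigonadal fat. It had 0.302 for Tbx15, 0.0838 for En1, 0.432 for Lhx8 and 0.0940 for Tcf21, and its mean log2 mesothelial score was -2.34 against -0.89 to -0.15 in the 5 other day 60 perirenal arrays. Of the other 9 marker scores 4 also lay below those arrays: lymph node (-2.74 against -2.57 to -1.58), skin and mammary (-3.70 against -3.44 to -2.98), brown fat (-1.05 against -0.91 to 0.89) and kidney and adrenal (-1.80 against -1.76 to 1.44).

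The differences between depots lasted through restriction. Of the 54 gene and pair combinations, 40 were called on each of the 8 days in 1 direction, and 0 were called in opposite directions on different days. By pair, these were 6 of 9 for labelled subcutaneous against mesenteric (45.8% of genes), 7 against perirenal (53.1%) and 9 against perigonadal (57%), then 5 for mesenteric against perirenal (42.4%), 6 against perigonadal (48.7%) and 7 for perirenal against perigonadal fat (32.2%). The combinations called on no day were Irx5 between subcutaneous and perirenal, Gata4 between mesenteric and perigonadal and Gata6 between perirenal and perigonadal fat. The widest range of day means was that of Gata4 in subcutaneous fat, 0.85 on the log2 scale, with the lowest mean on day 1 and the highest on day 14. Lhx8 in mesenteric fat came next with 0.66, and the narrowest was Gata4 in perigonadal fat with 0.035.

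**Figure D2:**
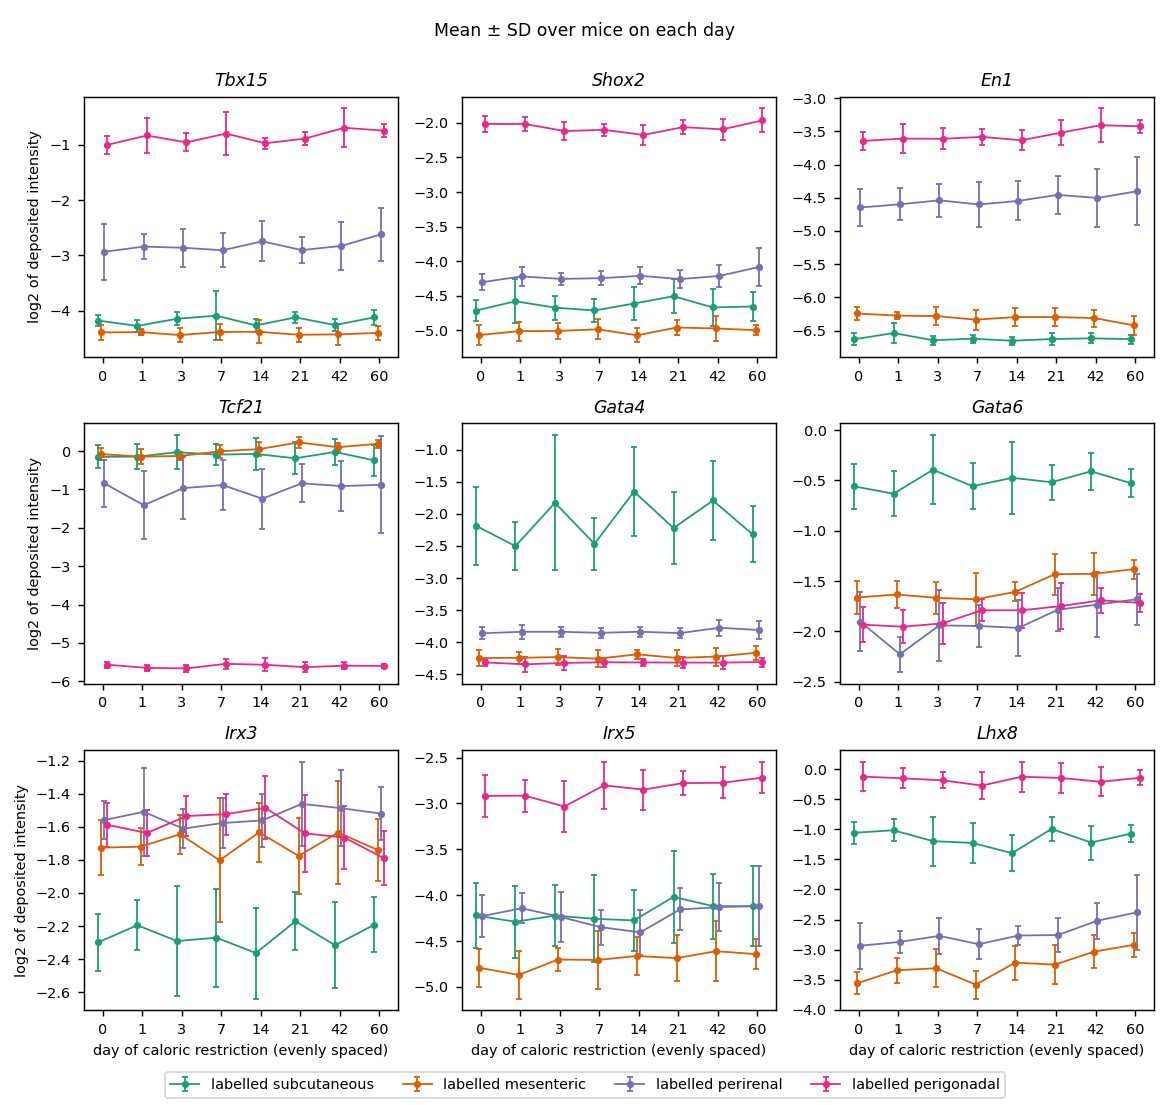
Log2 intensity of the 9 genes against day of restriction (0 to 60), as the mean log2 over mice with its SD for each labelled depot, the days evenly spaced. The lines of perigonadal fat stay above the other depots for Tbx15, Shox2, En1, Irx5 and Lhx8 and below them for Tcf21.

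Within a depot, few members moved with time. A test over all days called 3 members in labelled mesenteric fat (Tcf21, adjusted p = 2.1e-05, Gata6, 0.0057, and Lhx8, 3.4e-05), where 30% of genes were called. It called Lhx8 alone in perirenal fat (adjusted p = 0.039, 19.9% of genes) and Gata6 alone in perigonadal fat (adjusted p = 0.037, 28.2%). In subcutaneous fat limma called 0 of 9 (4.43% of genes), and 2 members, Gata4 and Lhx8, had an unadjusted p under 0.05 (0.045 and 0.015). These shares are near or below the background in each depot, and the Gata6 call in perigonadal fat was lost without J20 or J7 of day 1. By the letter of the mouse identifier limma called 0 of 36 member and depot combinations (6 with an unadjusted p under 0.05), where 1.14%, 27.2%, 0.0481% and 1.64% of genes did in subcutaneous, mesenteric, perirenal and perigonadal fat.

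The first 14 days brought 0 calls against day 0 among the members in any depot. In labelled subcutaneous fat 0%, 0%, 0% and 0.0421% of genes were called on days 1, 3, 7 and 14, and in perirenal fat 0.108%, 0.018%, 0.0781% and 0.433%. In mesenteric fat the shares were 0.0361%, 0.379%, 2.73% and 3.03%, and in perigonadal fat 0.276%, 1.14%, 7.2% and 10.2%. Of the 144 combinations of member, depot and day, 9 had an unadjusted p under 0.05, among them Lhx8 in mesenteric fat on day 14 (log2 change 0.36, adjusted p = 0.052) and Shox2 in perigonadal fat on day 14 (-0.16, adjusted p = 0.055). On day 21 the members were called in mesenteric fat alone, while 0.138% of genes were called in subcutaneous, 2.5% in perirenal and 15.3% in perigonadal fat.

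In labelled mesenteric fat, Lhx8, Tcf21 and Gata6 were called higher on days 21, 42 and 60. Lhx8 had lowest, median and highest intensities of 0.0718, 0.0825 and 0.102 on day 0, 0.0865, 0.125 and 0.161 on day 42 and 0.117, 0.125 and 0.163 on day 60. Day 60, which holds N mice only, did not overlap day 0, which holds both letters. The share of all genes without such overlap was not counted. The log2 change was 0.52 ± 0.11 on day 42 (adjusted p = 0.00011, 11 of 11 mice above the day 0 mean of their own letter) and 0.57 ± 0.13 on day 60 (adjusted p = 0.00064, 6 of 6 mice). Tcf21 went from 0.808, 0.949 and 1.10 on day 0 to 0.940, 1.08 and 1.22 on day 42, a change of 0.18 ± 0.06 (adjusted p = 0.022, 10 of 11 mice). Gata6 went from 0.267, 0.310 and 0.395 to 0.270, 0.367 and 0.466, a change of 0.23 ± 0.07 (adjusted p = 0.012, 10 of 11 mice). The groups overlapped for both, and both medians were higher on day 21 than on day 42 (1.22 for Tcf21 and 0.404 for Gata6 on day 21). On day 42, 3 of 9 members were called where 25.8% of genes were, and on day 21 the same 3 (13.1%). On day 60 there were 4, where 20.7% of genes were called. Tcf21 was again higher (0.25 ± 0.07, adjusted p = 0.0095, 6 of 6 mice), and En1 was lower by a log2 change of -0.20 ± 0.07 (adjusted p = 0.017, 5 of 6 mice lower), a call lost without N62 (-0.17, adjusted p = 0.073). The Gata6 change on day 60 was 0.24 ± 0.09 (adjusted p = 0.049, 6 of 6 mice), and it was called in only 3 of the 18 fits that left out 1 mouse. The call was lost without any 1 of the 6 mice of day 60, with an adjusted p of up to 0.15 without N22, and without any 1 of 9 of the 12 mice of day 0.

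The mean log2 mesothelial score of labelled mesenteric fat went from -0.61 on day 0 to -0.28 on day 42, and the epididymal score from -2.18 to -1.90, beside the rises of Lhx8, Tcf21 and Gata6. The part of the mesothelial score was not tested. With the epididymal, gut and pancreas, lymph node, skeletal muscle, and skin and mammary scores as covariates, the Lhx8 change was 0.56 (adjusted p = 5.6e-06). In the J mice alone, where day 42 had 5 mesenteric arrays, the Lhx8 change was 0.52 (adjusted p = 0.079), the Tcf21 change 0.20 (0.27) and the Gata6 change 0.10 (0.73). In the N mice alone the changes were 0.53 for Lhx8, 0.16 for Tcf21 (adjusted p = 0.090) and 0.35 for Gata6.

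Lhx8 also rose in labelled perirenal fat, from 0.0923, 0.129 and 0.254 on day 0 to 0.125, 0.170 and 0.244 on day 42. The groups overlapped, all 12 mice lay above the day 0 mean of their letter, and the log2 change was 0.42 ± 0.13 (adjusted p = 0.016, 17.1% of genes called). On day 60 the change was 0.55 ± 0.16 (adjusted p = 0.013, 15.8% of genes), and without mouse N14, the array nearest perigonadal fat, it was 0.32 (adjusted p = 0.18). In the J mice alone the day 42 change was 0.55, and in the N mice alone it was 0.29 (adjusted p = 0.50).

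In labelled perigonadal fat, Tbx15, En1 and Gata6 were called on day 42, where 21.3% of genes were. Gata6 went from 0.211, 0.262 and 0.315 on day 0 to 0.280, 0.303 and 0.364 on day 42, a log2 change of 0.24 ± 0.07 (adjusted p = 0.011, 10 of 10 mice). En1 went from 0.0693, 0.0809 and 0.0976 to 0.0664, 0.0952 and 0.119, a change of 0.23 ± 0.07 (adjusted p = 0.018, 9 of 10 mice), and without N70 or N69 it was not called (0.19 and 0.20, adjusted p = 0.052 for both). Tbx15 went from 0.434, 0.482 and 0.646 to 0.467, 0.609 and 1.04, a change of 0.30 ± 0.10 (adjusted p = 0.026, 8 of 10 mice). All 3 pairs of groups overlapped. On day 60 limma called 0 members in perigonadal fat (16.9% of genes), and 3 had an unadjusted p under 0.05.

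Skeletal muscle markers, a list of 8 genes of contractile fibres such as Ckm, are given beside the Tbx15 change. Their part in it was not tested apart from that of other markers. Their mean log2 score in labelled perigonadal fat was 0.86 ± 1.44 (SD) on day 0 and 1.89 ± 1.27 on day 42, and 0 of the 8 genes were called by limma (3 with an unadjusted p under 0.05). The summed intensity of all 8 ranged from 6.71 to 77.2 over perigonadal arrays and from 1.36 to 3.30 over mesenteric arrays. The 2 highest Tbx15 values in this depot, both 1.04, were in mice N97 (day 7) and N92 (day 42), whose muscle scores were 3.09 and 3.16 where the depot's median was 1.68. With the same 5 marker scores entered together as covariates, the Tbx15 change on day 42 was 0.16 ± 0.09 (adjusted p = 0.20). Without N92 it was 0.22 (adjusted p = 0.099), without N10 0.27 (0.060), and without N74 of day 0 0.28 (0.051). In the J mice alone the changes on day 42 were 0.10 for Tbx15, 0.09 for En1 and 0.26 for Gata6, and in the N mice alone 0.45, 0.31 and 0.22, of which En1 was called.

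**Figure D3:**
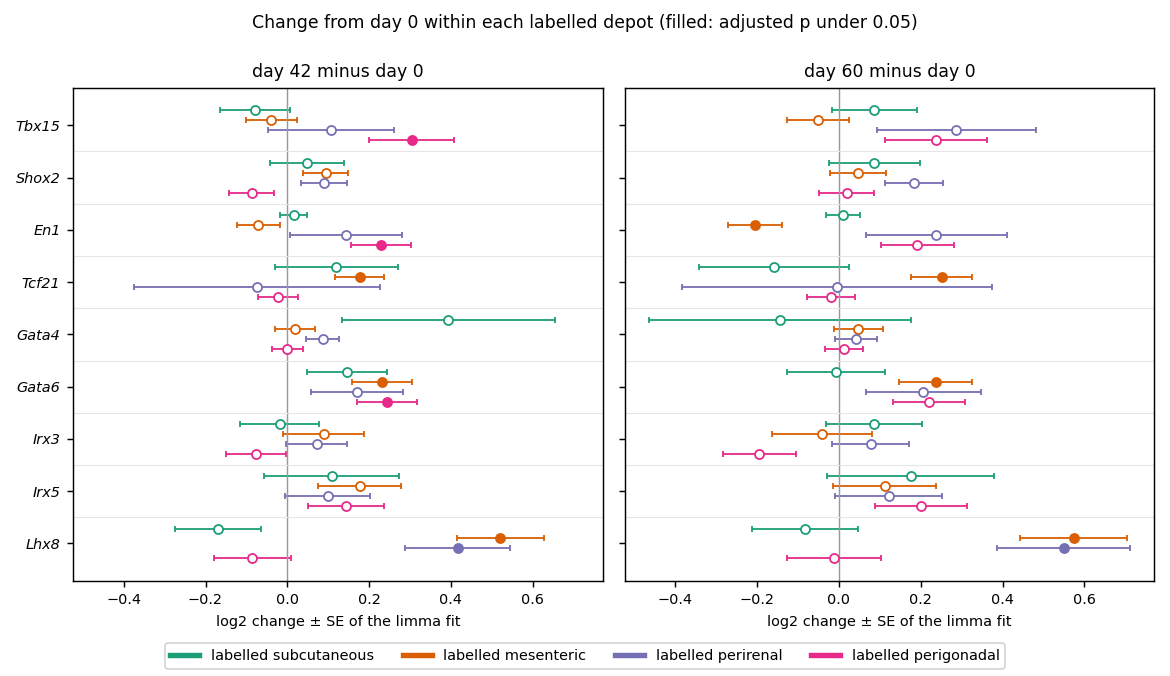
Fitted log2 change of each of the 9 genes against day 0, with its SE, at day 42 and day 60 in the 4 labelled depots (filled where the adjusted p was under 0.05). The called changes run from -0.20 for En1 to 0.57 for Lhx8, both in mesenteric fat on day 60.

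In labelled subcutaneous fat, limma called 0 of 9 members on day 42 (3.08% of genes) and on day 60 (7.51%), and 0 had an unadjusted p under 0.05 on either day. Lhx8 there went from 0.379, 0.493 and 0.568 on day 0 to 0.303, 0.418 and 0.569 on day 42, a change of -0.17 ± 0.10 (adjusted p = 0.52). Whether the differences between depots changed over the days was tested for each member by the interaction of depot and day in the joint fit of 312 arrays. Lhx8 alone was called (F = 2.65, adjusted p = 0.016), and 2.59% of genes were. In J or N mice alone 0 members were called. On simulated data this interaction test called 36 genes that had been given no shift, so the Lhx8 result was also taken mouse by mouse.

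Within mice, Lhx8 in labelled subcutaneous fat exceeded mesenteric fat by 2.51 ± 0.29 (SD, n = 12) on the log2 scale on day 0 and by 1.81 ± 0.26 (n = 10) on day 42. The gap changed by -0.70 (permutation test, two-sided, p adjusted over 6 pairs of depots = 0.00012). The gap between subcutaneous and perirenal fat went from 1.88 to 1.27 (adjusted permutation p = 0.0051), and that between mesenteric and perigonadal fat from -3.44 to -2.84 (0.0013). Between perirenal and perigonadal fat it went from -2.78 to -2.31 (adjusted permutation p = 0.0098). The gaps between subcutaneous and perigonadal fat (-0.90 and -0.98, 0.48) and between mesenteric and perirenal fat (-0.63 and -0.47, 0.44) did not pass. The 4 pairs that passed each set 1 of the depots where Lhx8 was called higher on day 42 against 1 where it was not. The pairs share depots, and this test was added after the interaction had been seen.

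**Figure D4:**
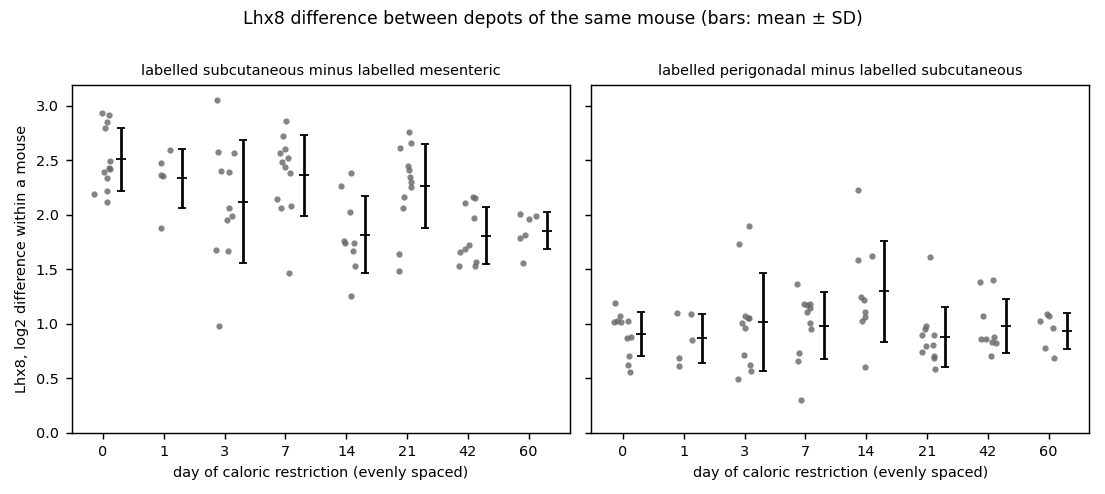
Log2 difference of Lhx8 between 2 labelled depots of the same mouse on each of the 8 days, 1 point per mouse with mean ± SD, for subcutaneous minus mesenteric and perigonadal minus subcutaneous fat. The first gap goes from a mean of 2.51 on day 0 to 1.81 on day 42.

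Within a depot, with day means removed, the members varied among mice together with tissue markers. Of 360 relations computed, of members with marker scores or with each other, 136 had an adjusted Pearson permutation p under 0.05. The same relations were not computed for other genes, so this count is not a trait of the members. Tcf21 followed the mesothelial score in labelled perirenal fat (r = 0.85, rho = 0.84, n = 80) and in subcutaneous fat (r = 0.84, rho = 0.73, n = 78), with adjusted permutation p = 9e-05 for each, which rests on the smallest p that 100000 permutations give. Without the 2 farthest mice r was 0.83 and 0.78. It was 0.86 in J and 0.85 in N mice for perirenal fat and 0.84 and 0.83 for subcutaneous fat. In perigonadal fat, where both were low, r was 0.27. En1 ran against the brown fat score in perirenal fat (r = -0.74, rho = -0.78, n = 80, adjusted permutation p = 9e-05), with r = -0.76 in J and -0.73 in N mice. The thermogenic gene Ucp1 reached a median of 11.8 in that depot and of 0.0588 to 0.184 elsewhere.

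Members also varied with each other. Gata4 and Gata6 rose and fell together among mice in labelled subcutaneous fat (r = 0.70, rho = 0.57, n = 78) and in mesenteric fat (r = 0.58, rho = 0.53, n = 79), each with an adjusted permutation p = 9e-05, and r was 0.67 and 0.58 without the 2 farthest mice. In perigonadal fat, where Gata4 was dim, r was -0.17. Tbx15 and En1 varied together in perirenal fat (r = 0.61, rho = 0.72, n = 80, adjusted permutation p = 9e-05), with r = 0.73 without the 2 farthest mice. Both ran against Tcf21 in the same depot, with r = -0.65 for Tbx15 and -0.69 for En1. Coefficients of Tbx15 with the muscle score were computed and are among the relations counted above. Muscle scores fell into separate runs of arrays, so none of these coefficients is given, and the single arrays named do not measure a relation. The highest Tbx15 value in subcutaneous fat, 0.152 in mouse J44 on day 7, was in the array with the highest muscle score of that depot, 0.84 against a median of -2.66, and the next highest Tbx15 value was 0.0646.

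**Figure D5:**
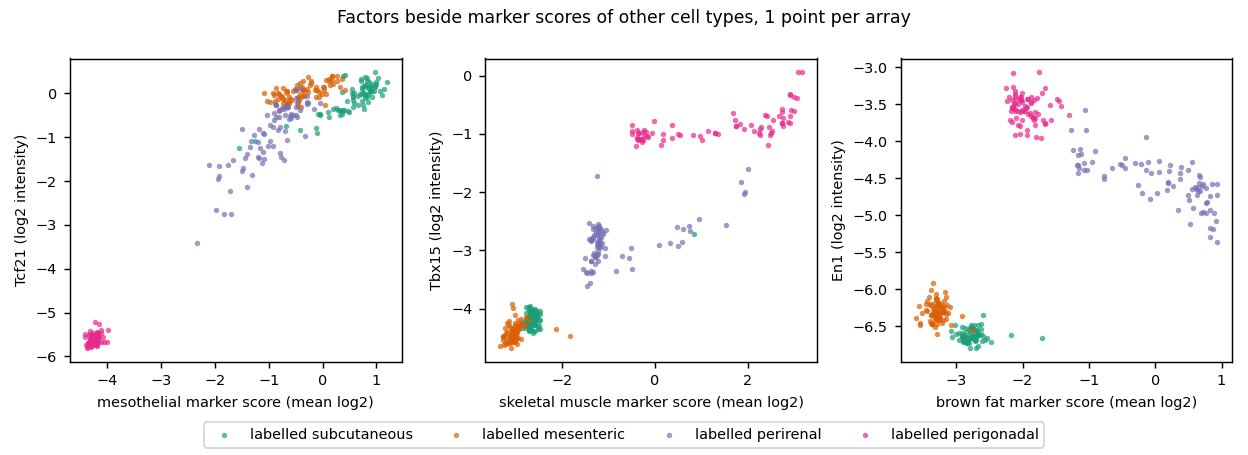
Log2 intensity of Tcf21 against the mesothelial score, Tbx15 against the skeletal muscle score and En1 against the brown fat score, 1 point per array by labelled depot. Tcf21 climbs with the mesothelial score in perirenal and subcutaneous fat, and 1 subcutaneous array stands apart for Tbx15.

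For each member, the 3 genes most like it were those with the highest Pearson correlation of log2 values over the 312 fat arrays. These coefficients describe shared depot levels, since the arrays share depots and mice, and they carry no test. Closest to Tbx15 were Mlip (r = 0.98), a protein of the muscle nuclear lamina, Akr1c18 and Lrrc38 (both 0.97). Shox2 was closest to H2-M9 (0.97), the signalling protein gene Wnt2 (0.96) and the nicotinic receptor subunit Chrna5 (0.95). En1 was closest to Art5, Pth2 (both 0.97) and Dmrtc2 (0.96). For Lhx8 they were AI606473 (0.98), C130021I20Rik (0.93) and Olfr156 (0.92).

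The genes most like Tcf21 were the mesothelial genes Upk3b and Msln and the protease inhibitor Slpi, all at 0.98. Upk3b had medians of 4.24, 2.66, 1.66 and 0.0814 in labelled subcutaneous, mesenteric, perirenal and perigonadal fat. Gata4 was closest to Slc5a11 (0.98), to Lct (0.96), the lactase of the intestinal lining, and to 1810046K07Rik (0.96). Lct had a median of 1.39 in subcutaneous fat and of 0.0422 to 0.0679 elsewhere. Gata6 was closest to the zinc transporter gene Slc39a4 (0.93), Btnl2 and the phosphodiesterase gene Pde5a (both 0.92). Irx3 had the weakest partners, Pde2a (0.86), Ctla2b (0.85) and Slc12a5 (0.84), and those of Irx5 were Otos, 9630002D21Rik (both 0.90) and Slc30a8 (0.89).

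Relatives of the members were set beside them, as a list of 22 T-box, GATA, Iroquois, LIM-homeobox, engrailed and helix-loop-helix genes. At day 0 the log2 range of depot means was over 1 in 8 of 9 members (median 2.99) and in 10 of 22 relatives (median 0.78), against 17.3% of all genes (median 0.47). Tbx1, a T-box factor of pharyngeal development, had geometric means of 0.189 in labelled subcutaneous, 0.0444 in mesenteric, 0.0237 in perirenal and 0.157 in perigonadal fat. Tbx18, a T-box factor of heart and ureter development, was lowest in subcutaneous fat, with 0.0196 against 0.112, 0.137 and 0.111. The Iroquois genes Irx1 and Irx2 were highest in perigonadal fat like Irx5, with 0.160 and 0.209 there. Tbx5, the forelimb factor, was highest there too with 0.248, and Gata5 was highest in subcutaneous fat like Gata4 and Gata6, with 0.157 against 0.0507 to 0.0538. In perigonadal fat 4 of 22 relatives were called on day 42 (3 higher, 1 lower, against 21.3% of all genes), and in mesenteric fat 2 (both higher, against 25.8%). In subcutaneous and perirenal fat limma called 0 (3.08% and 17.1% of genes), with 1 at an unadjusted p under 0.05 in each. The interaction of depot and day called 0 of 22 (limma, 1 at an unadjusted p under 0.05), where 2.59% of genes were called.

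Of the cofactors and neighbouring genes, 10 of 12 listed were measured, and 2 had a day 0 range over 1. Meis1, a homeobox cofactor, had geometric means of 0.602, 0.339, 0.381 and 0.228 in labelled subcutaneous, mesenteric, perirenal and perigonadal fat, and Crnde, a transcript next to the Iroquois genes, had a range of 1.22. Of 35 measured other patterning factors, 17 had a range over 1. Isl1, a LIM-homeobox factor, had 1.01 in subcutaneous and 0.0360 in perigonadal fat, and Bnc1, which is also in the mesothelial list, had 0.460 and 0.0167. Emx2, a homeobox factor of the urogenital system, had 0.220 in mesenteric and 0.30 in perigonadal fat against 0.0366 in subcutaneous and 0.0453 in perirenal fat. Twist1, a mesenchymal helix-loop-helix factor, had 0.549 in subcutaneous and 2.60 in perigonadal fat.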

How the data were processed

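RNA of 4 fat depots, hypothalamus and liver was hybridised to Affymetrix arrays. The deposited tables hold 1 intensity per probe set and array on a linear scale. Array means lie near 1, and no header or label says whether or how the values were scaled. Each gene was read from the probe set with the highest mean over 466 arrays. Of 32640 probe sets, 25508 had 1 symbol and 7132 had none. The deposited intensity was taken as log2 without an offset or a filter on low values, and no detection calls were used.

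The 312 fat arrays were fitted jointly with limma 3.58.1 (R 4.3.3, trend and robust), with a mean for each depot and day and a term for the letter in the mouse identifier within each depot. Days were compared with day 0 in a separate fit per depot, with the letter as a term. The p-values were adjusted by Benjamini-Hochberg over all 16643 genes, and a call is an adjusted p under 0.05. Permutation tests (scipy 1.17.1, two-sided, 100000 draws) served the relations among mice and the Lhx8 gaps. A marker score is the mean log2 intensity of a list. The number of arrays limits the precision.

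The fits were tested on simulated data, and for a shift of 0.5 on the log2 scale 85.1% to 98.5% of shifted genes were recovered at day 42 in the 4 depots. Depots with the same full identifier, letter and number, come from the same mouse. The median correlation of their deviations over the 6 pairs of depots was 0.0447 to 0.134. The members and all gene lists were chosen with earlier results of these data known. All 9 members are described, with the 3 genes most correlated with each, up to 6 genes per related list with the widest day 0 range, and the first gene of a marker list with others needed to describe the depots.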

Additional observations from a re-analysis of the deposited data

Results flagged for a closer look

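A gap test within a depot and day was made in 117 groups of 4 to 10 arrays, and 7 held an array that stood apart from the rest. Chance flags about 1 group in 20. In labelled perigonadal fat, Shox2 was 0.172 in mouse J26 on day 14, where the other arrays ran from 0.215 to 0.259, and 0.202 in N62 on day 60, where the others ran from 0.257 to 0.279. Tcf21 was 0.600 in the subcutaneous array of J20 on day 1, where the others ran from 0.951 to 1.02. Tcf21 was also 0.0940 in the perirenal array of N14 on day 60, against 0.559 to 0.875 in the others, and this was the array whose members together lay nearest perigonadal fat. In labelled mesenteric fat, Gata4 was 0.0488 in J57 on day 14, against 0.0531 to 0.0570. Gata6 was 0.434 in mesenteric fat of N22 on day 60, against 0.363 to 0.387, and Irx3 was 0.265 in J80 on day 1, against 0.305 to 0.320.

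Lhx8 stood out because its differences between depots varied over the days by the interaction test (limma, adjusted p = 0.0160). It was called higher on day 42 in labelled mesenteric and perirenal fat and was not called in subcutaneous or perigonadal fat.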

How the results depend on the processing

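The widest depot difference of each member and the called changes of days 42 and 60 kept direction in every alternative run of them. The Gata4 difference of mesenteric minus perigonadal fat, not called in the main fit, turned from 0.09 to -0.23 with probe sets averaged. Fold sizes between depots fell with 0.05 added before log2. The log2 difference went from -3.07 to -1.17 for En1, 5.63 to 3.92 for Tcf21 and -2.95 to -1.83 for Shox2. It went from -3.55 to -2.63 for Tbx15, -1.86 to -1.10 for Irx5 and 2.18 to 1.49 for Gata4. The last was 1.36 with probe sets averaged. Of the recomputed counts of called members 461 stayed within 1.5 times the count reported and 38 did not. In J mice alone 0 members were called by the interaction test, over the days in labelled mesenteric, perirenal or perigonadal fat, or on day 42 in mesenteric or perigonadal fat. In N mice alone 0 were called by the interaction test and over the days or on day 42 in perirenal fat, with 2 over the days and 1 on day 42 in perigonadal fat. Each holds fewer mice. Over the days, leaving out the letter term gave 3 members in perigonadal fat, centring arrays on their median gave 0 in perirenal fat, quantile normalisation gave 0 in perirenal and perigonadal fat, and marker covariates gave 1 in subcutaneous and 2 in perirenal fat, and the cause was not tested. A filter at percentile 50 left 4 members between depots, of which 4 were called in each pair over all days. At day 0 it left 3 called for subcutaneous against mesenteric, 4 against perirenal and 4 against perigonadal fat, 3 for mesenteric against perirenal and 3 against perigonadal fat, and 2 for perirenal against perigonadal fat. It left 0 of 3 tested in perirenal fat over the days and on day 42. With each mouse left out in turn, perigonadal fat had 0 to 1 members called over the days (0 without J20 or J7 of day 1) and 0 to 1 on day 60 (1 without J17 of day 0). On day 60 mesenteric fat had 2 to 4 (2 without N62) and perirenal fat 0 to 2 (0 without N14, 2 without N62 or N59). On day 42 these ranges were 3 to 3 in mesenteric, 1 to 1 in perirenal, 2 to 3 in perigonadal and 0 to 0 in subcutaneous fat. With the mouse as a replicate block in the joint fit, 8 members were called between subcutaneous and mesenteric fat over all days and 1 by the interaction test, and no count moved by over 1.5 times. Signal over background limits En1, and Tcf21 in perigonadal fat, since both probe sets are dim there. Other members were also low in the depot under their widest fold. By mean log2 level among all probe sets, Shox2 stood at percentile 16.8, Irx5 at 20.2 and Tbx15 at 23.4 in mesenteric fat. Gata4 stood at 21.5 in perigonadal fat, so these folds too rest on dim values.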
